A study of Mus musculus with 9 samples.

Results

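Brain RNA of mice given VEGF in a cerebral ventricle after a stroke was compared with that of mice given vehicle. VEGF-A is a secreted growth factor that binds the receptors Flt1 and Kdr on endothelial cells, with Nrp1 as a co-receptor, and it is known for new vessel growth and for vascular permeability in ischaemic brain. The comparison took the 6 of the 9 samples of the series whose titles name the VEGF group or the MCAO group, 3 arrays of 3 separate mice on each side, and every non-control probe of the arrays. All were male C57BL/6 mice with no transgene stated. In both groups the middle cerebral artery was closed for 90 min and then reperfused. At 3 h of reperfusion 1 µl was injected into the lateral ventricle on the right. In MCAO mice, aged 50, 52 and 53 days, it was phosphate-buffered saline. In VEGF mice, aged 50, 50 and 53 days, it was VEGF-A165, a recombinant human protein, at 10 µg/ml. Brains were taken 24 h after reperfusion, 21 h after the injection. The part of the brain is not stated. The remaining 3 samples had sham surgery, with no injection stated, and are shown beside the comparison.

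Levels below are log2 of the scanner's processed signal minus the array's own 75th percentile, so 0 is the 75th percentile of that array, and a level compares arrays for 1 gene, not genes with each other. A difference is VEGF minus MCAO in log2 units, given ± its standard error in limma's fit of all 9 arrays (n = 3 arrays per group). Of 55681 non-control probes 43921 passed the filter on dim signals, and 30837 genes and unnamed transcripts, called genes here, were tested. MCAO arrays had a 75th percentile signal of 923, 2070 and 1980, VEGF arrays of 848, 1830 and 1540, and 73.0% to 81.8% of spots were well above background. All 20 neuron markers, 14 astrocyte markers and 16 oligodendrocyte genes measured were well above background on all 6 arrays. MCAO array 1 and VEGF array 1 stood apart from the other 4: relative to sham, the median of the neuron markers was -2.46 and -2.53 on them against -0.78 to -0.27 on the others, and the median of the endothelial markers was 2.25 and 2.63 against 0.31 to 0.80. In bulk RNA, fewer cells of a type and less RNA per cell cannot be told apart. The 6 arrays shared a slide and the sham arrays another, and MCAO array 1 had a scan of its own.

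Orosomucoid genes gave the differences that passed the test, and their deposited signals did not match the brightness of their spots. Orosomucoids are plasma proteins of the acute phase, made mostly by the liver and raised by inflammatory cytokines through factors of the C/EBP family. In GRCm38.p6 the mouse genes lie side by side on chromosome 4, Orm1 at 63344556 to 63348163, Orm3 at 63356069 to 63359506 and Orm2 at 63362449 to 63365877. Orm1, Orm2 and Orm3 were each lower in VEGF than in MCAO with either form of the signal described below. None of them passed with the recomputed signal. Whether each probe reads its own gene alone was not tested. The set of promoters used here held none for Orm1, and those of Orm2 and Orm3 are shown. From RefSeq's GRCm38.p6 promoter table, they are the 250 bases before the start of Orm2, at chr4:63362199-63362448, and 161 bases that end where the Orm3 gene span begins, at chr4:63355908-63356068, both on the plus strand. Capitals mark a C/EBP-type match (TTGCNNAA) and a TATA box (TATAAA), searched on both strands.
Orm2: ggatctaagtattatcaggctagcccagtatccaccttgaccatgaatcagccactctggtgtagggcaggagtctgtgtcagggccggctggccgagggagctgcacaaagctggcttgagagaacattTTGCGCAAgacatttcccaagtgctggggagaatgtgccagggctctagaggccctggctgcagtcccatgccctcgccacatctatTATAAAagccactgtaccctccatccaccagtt
Orm3: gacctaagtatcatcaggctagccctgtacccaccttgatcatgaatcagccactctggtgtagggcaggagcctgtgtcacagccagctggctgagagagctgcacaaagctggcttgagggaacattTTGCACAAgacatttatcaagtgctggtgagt
Aligned, 144 of 161 bases (89.4%) were identical. Each sequence held 1 C/EBP-type match, and the Orm2 sequence also held 1 TATA match that did not overlap it. That TATA match lies past the stretch that the shorter Orm3 sequence covers, so the genes cannot be compared for it. Over all 32851 promoters in the table, the C/EBP-type letters were in 9.56% over 250 bases and in 6.65% over the first 161, and the TATA letters were in 12.4% over 250 bases. A match describes the letters and is not a bound site.

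The processed signal that the scanner software writes can be recomputed from its own parts: the background-subtracted signal divided by a spatial trend factor. On 14 spots, 1 each of 14 probes, the deposited processed signal departed from this by more than 0.1 log2 units beyond that step, by 2.39- to 2257-fold at most per spot. The spots belong to Orm1, Orm2, Orm3, C3 (1 of 10 spots of its probe), Prr7, Iho1, Nhs, Plxnc1, B3gat2 and Otud7b. The rest belong to BC022771 and 3 other transcripts, none with a symbol. Of the 14, 7 departed on all 9 arrays, 2 on 6, 4 on 3 and 1 on 2 arrays. The authors' deposited value table carried the same departures. On each of the 14 the MCAO and VEGF arrays did not overlap, with 6 lower and 8 higher in VEGF, with deposited and with recomputed signals. Over all genes tested these groups did not overlap in 5.78%. The median absolute difference was 2.53 log2 units deposited and 1.32 recomputed. VEGF and sham arrays overlapped on 11 of the 14 with deposited and on 10 with recomputed signals, and MCAO and sham on 0 with either. Overlap with sham was not counted over all genes. The origin of the departures was not tested. Plxnc1 differed by 2.198 deposited and 0.9002 recomputed, B3gat2 by 2.172 and 1.019, and BC022771 by 1.555 and 1.248. For Otud7b the recomputed difference was the larger, at -1.386 against -1.011 deposited. Both values are given below for the Orm genes, C3, Prr7, Iho1 and Nhs. The plot of the 14 spots shows both values for each spot.

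**Figure D1:**
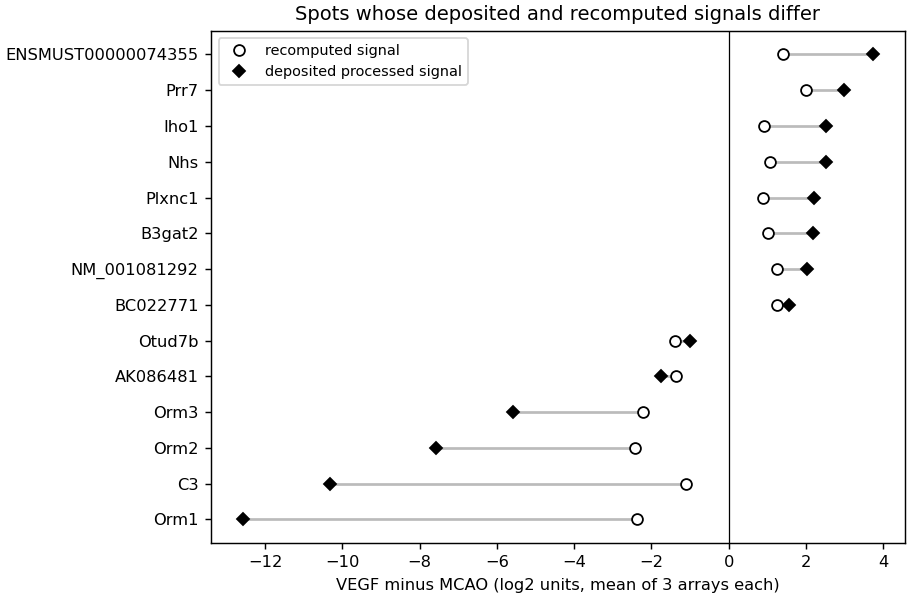
VEGF minus MCAO in log2 units (x axis, mean of 3 arrays per group) for the 14 spots whose deposited processed signal (filled diamonds) departed from the signal recomputed from the same scanner rows (open circles). The direction is the same with both signals; the largest absolute difference is 12.58 deposited and 2.41 recomputed.

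Orm1 was the extreme case. Its deposited signals were 48800, 73900 and 48400 on MCAO and 2.88, 16.8 and 9.99 on VEGF arrays, while the mean brightness of the spot before background subtraction was 83.8, 64.2 and 84.0 on MCAO and 29, 46 and 41.3 on VEGF. No VEGF array reached any MCAO array in either measure, and the spot was well above background on all 3 MCAO arrays and on 1 of 3 VEGF arrays. The difference was -12.58 ± 0.42 deposited (limma adjusted p = 2.09e-05) and -2.36 recomputed (adjusted p = 1). In the authors' deposited table Orm1 stood at 15.99, 16.58 and 15.51 on MCAO arrays and at 2.58, 3.84 and 3.45 on the VEGF arrays.

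Orm2 had deposited signals of 1500, 986 and 1210 on the MCAO arrays against 4.75, 4.64 and 7.34 on the VEGF arrays. Recomputed, its signals were 115.1, 250.4 and 189.7 against 11.46, 45.84 and 43.38. All VEGF arrays lay below all MCAO arrays in both, and 3 of 3 MCAO and 2 of 3 VEGF arrays were well above background. The difference was -7.58 ± 0.61 deposited (limma adjusted p = 0.0148) and -2.42 recomputed (adjusted p = 0.68). Orm3 had deposited signals of 120, 480 and 1030 against 2.50, 10.9 and 12.6, and recomputed signals of 22.67, 61.03 and 39.22 on the MCAO arrays with 2.505, 10.85 and 12.59 on the VEGF arrays. Its difference was -5.58 ± 0.56 deposited (limma adjusted p = 0.058) and -2.25 recomputed. For Orm3 the VEGF signals were the same in both forms, and the MCAO signals were lower when recomputed. Its spot was well above background on 3 of 3 MCAO arrays and 1 of 3 VEGF arrays.

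**Figure D2:**
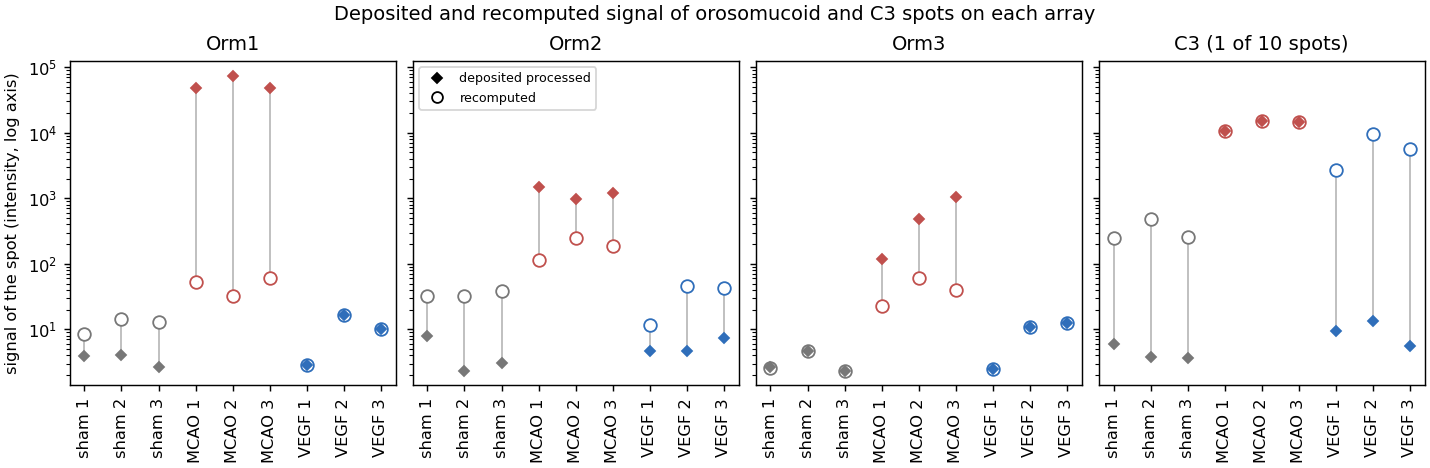
Signal of the Orm1, Orm2 and Orm3 spots and of 1 of the 10 C3 spots on each of the 9 arrays (y axis, intensity on a log scale). Filled diamonds are the deposited processed signal and open circles the recomputed signal; MCAO arrays lie above VEGF arrays with both, and the gap is wider with the deposited signal.

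C3, the central component of complement, was also measured on a probe whose signals matched. There it stood at 2.81, 2.14 and 2.01 on MCAO arrays and at 1.18, 1.68 and 1.24 on the VEGF arrays, with sham between -0.48 and -0.34. The 3 VEGF arrays lay below the 3 MCAO arrays, and all lay above sham. The difference was -0.95 ± 0.25 (95% interval -1.53 to -0.38), at an unadjusted limma p of 0.00481 and an adjusted p of 1. The single departing spot of its other probe gave -10.3 deposited and -1.11 recomputed.

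Prr7, which encodes a synaptic membrane adaptor, and Iho1, a meiosis gene, were higher in VEGF on departing spots. Prr7 differed by 2.99 ± 0.37 deposited and 2.00 recomputed on its spot, and Iho1 by 2.53 ± 0.32 deposited and 0.91 recomputed. Neither passed in the fit of all arrays (limma adjusted p = 0.185 for both). Nhs, an actin regulator gene, stood at -7.35, -9.38 and -9.34 on MCAO arrays and at -6.04, -5.77 and -6.68 on VEGF arrays, a difference of 2.53 ± 0.53 deposited and 1.06 recomputed, with no MCAO array well above background at its spot.

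Over all genes, 2 of 30837 passed an adjusted p of 0.05 (0.00649%), Orm1 and Orm2, both lower in VEGF. Orm1 was also called with any 1 array left out. Orm2 was not called without sham array 3, MCAO array 2, MCAO array 3 or any of the 3 VEGF arrays, with limma adjusted p values from 0.0525 to 0.122 and differences from -7.24 to -7.93. With the recomputed signal 0 genes passed in limma, with 898 to 901 at an unadjusted p under 0.05; with the departing probes left out 0 passed, with 883 at an unadjusted p under 0.05. With deposited signals 893 genes (2.9%) had an unadjusted p under 0.05. Same-numbered MCAO and VEGF arrays deviated together, so the number was also fitted as a block. MCAO array 2 deviated more with VEGF array 3 (r of 0.392) than with VEGF array 2 (0.224). The titles give only the numbers, so the block is an assumed pairing. With that block on the 6 arrays 0 genes passed and 1195 (3.88%) had an unadjusted p under 0.05; Orm1, Orm2 and Orm3 then each had an adjusted p of 0.112.

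The arrays bounded the difference for most genes rather than resolving it. The 95% interval lay within 2-fold in either direction for 16615 genes (53.9%) and within 4-fold for 28420 (92.2%). With the replicate block on the 6 arrays it lay within 2-fold for 20824 (67.5%). The median standard error was 0.31 and the median half-width of the interval 0.71 log2 units. The fitted difference reached 1 log2 unit in 734 genes (2.38%), 139 higher (0.451%) and 595 lower (1.93%) in VEGF. The groups did not overlap in 1781 genes (5.78%). In 604 genes (1.96%) all VEGF arrays lay above all MCAO arrays, and in 1177 (3.82%) all lay below. Differences between the arrays numbered 1 were wider than in the other pairs: 17.7% of genes differed there by at least 1 log2 unit, against 5.69% between the arrays numbered 2 and 6.36% between those numbered 3.

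**Figure D3:**
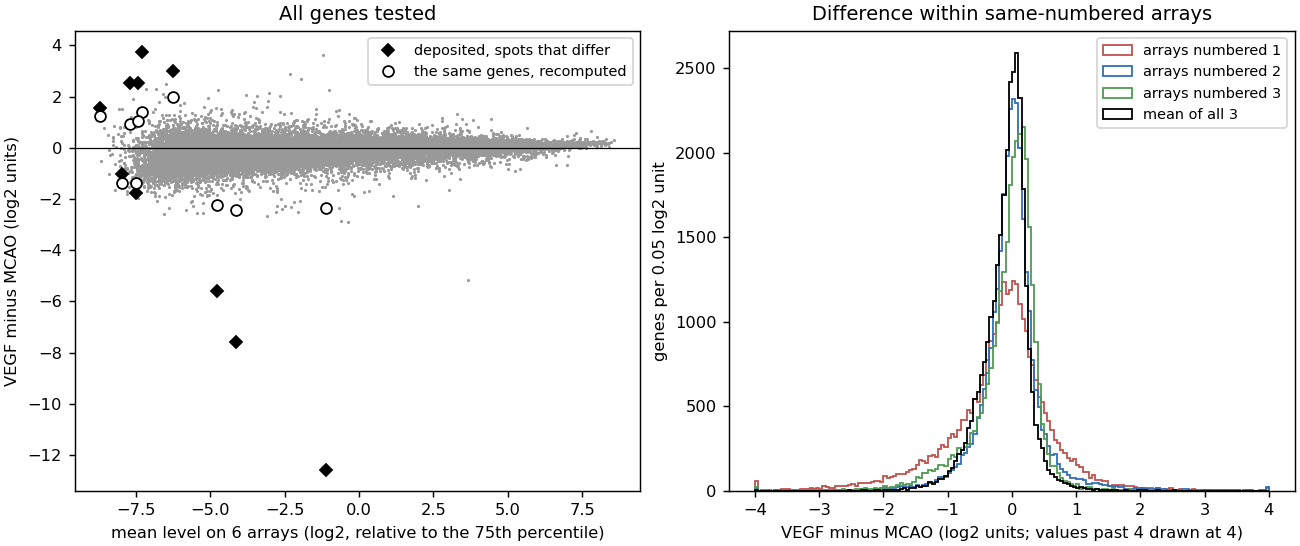
Left, VEGF minus MCAO in log2 units (y axis) against the mean level on the 6 arrays (x axis, log2 relative to the 75th percentile) for the 30837 genes tested, with the genes on departing spots as diamonds (deposited) and open circles (recomputed). Right, number of genes (y axis) by VEGF minus MCAO within same-numbered arrays and over all 3; the curve of the arrays numbered 1 is the widest, with 17.7% of genes at 1 log2 unit or more.

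Genes higher in VEGF on matching spots were not called, and all of those named next had VEGF arrays that did not overlap the MCAO arrays. They were taken by smallest unadjusted p. Agtr1b, an angiotensin II receptor gene, stood at -8.08, -7.27 and -7.59 on MCAO arrays against -6.79, -4.92 and -4.93 on VEGF arrays, a difference of 2.10 ± 0.50 that rested on dim spots: no MCAO array and 2 of 3 VEGF arrays were well above background. The agouti gene a, an antagonist of melanocortin receptors, stood at -7.45, -8.14 and -7.23 on MCAO arrays and -5.31, -6.50 and -5.67 on VEGF arrays. Its 3 within-pair differences were 2.14, 1.64 and 1.56, and 1 of 3 MCAO arrays was well above background.

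Brighter genes among them differed by smaller amounts. Chtf8, a subunit of a clamp loader in sister chromatid cohesion, stood at 3.70, 2.56 and 2.47 on MCAO arrays and at 3.99, 3.93 and 4.17 on VEGF arrays, with sham from 3.86 to 4.14. MCAO array 1 lay near the VEGF arrays, and the other 2 MCAO arrays lay lower. Slc25a25, a mitochondrial ATP-Mg carrier gene, stood at 1.85, 1.99 and 1.92 against 2.52, 2.39 and 2.52, a difference of 0.55 ± 0.16 that 2 of 2 probes shared in direction. The neural transcription factor gene Zic2 differed by 1.11 ± 0.31, the growth factor carrier gene Fgfbp1 by 1.41 ± 0.41, the sarcomere gene Myom2 by 1.19 ± 0.30 and Igf2os, a transcript opposite Igf2, by 0.86 ± 0.24. Each had an adjusted limma p of 1.

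Genes lower in VEGF on matching spots were also not called, and most were dim. Olfr1000, an olfactory receptor gene, had the smallest p among named genes on matching spots. It stood at -5.09, -3.75 and -4.18 on MCAO arrays and at -6.11, -6.25 and -6.24 on VEGF arrays, a difference of -1.86 ± 0.32 (limma adjusted p = 0.949). The VEGF arrays lay close together, below every MCAO array. Olfactory receptor genes have many close relatives, so signal of a relative on the probe cannot be told apart. Spopfm2, of a family of ubiquitin ligase adaptors, differed by -1.62 ± 0.29, the transcription factor gene Pou5f2 by -1.07 ± 0.21 and the tectorial membrane gene Tecta by -1.08 ± 0.23. Pou5f2 was well above background on all 6 arrays, at -1.41, -0.95 and -0.92 on MCAO and -2.23, -1.90 and -2.35 on VEGF.

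Alg8, a glucosyltransferase of protein N-glycosylation, stood at -1.28, 0.09 and 0.07 on MCAO arrays and at -1.61, -1.90 and -1.89 on VEGF arrays. As with Chtf8, MCAO array 1 lay nearest to the VEGF arrays, and the within-pair differences were -0.34, -1.99 and -1.96. Defb29, a beta-defensin gene, differed by -2.54 ± 0.62 (95% interval -3.96 to -1.13), the cornified envelope gene Cnfn by -0.93 ± 0.20 and Gm11563 by -1.23 ± 0.25. Olfr1378 differed by -1.16 ± 0.28 with 1 of 3 MCAO arrays and no VEGF array well above background, and with normexp background correction it was at 0.0482.

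With the block on replicate number the Orm genes came first. The genes named next were taken by smallest p among those with 1 sign in all 3 same-numbered pairs, as were Nhs, a, Agtr1b, Spopfm2, Tecta and Defb29 given above; none was called, at a limma adjusted p of 0.91 for each. VEGF was higher in all 3 pairs for 12.4% of all genes and lower in all 3 for 14.6%. Baalc, a gene of neuroectoderm and of leukaemic blasts, differed by 0.82, 0.75 and 0.77 in the 3 pairs, with levels of 3.04, 2.80 and 3.18 on MCAO arrays and 3.86, 3.55 and 3.95 on VEGF arrays. The class I histocompatibility gene H2-Q1 differed by 1.43, 1.38 and 0.91 and Brd8dc by 0.80, 0.66 and 0.96. Cfc1, which encodes a co-receptor of Nodal, was not well above background on any MCAO array and was so on 1 VEGF array, with a difference of 1.52 ± 0.47. Olfr555 differed by 0.80, 0.82 and 0.63 while its groups overlapped.

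Sdc1, which encodes the proteoglycan syndecan-1, stood at 1.21, -1.46 and -2.06 on MCAO arrays and at 0.28, -2.33 and -2.98 on VEGF arrays. Both arrays numbered 1 lay well above the other 4, so the groups overlapped, yet the pairs differed by -0.93, -0.87 and -0.92. The difference was -0.91 ± 0.99 without the block (95% interval -3.17 to 1.36), and the interval with the block was -1.30 to -0.51. Fancd2, a gene of DNA crosslink repair, differed by -0.80, -1.07 and -0.77 in the pairs, Olfr566 by -1.08, -1.55 and -1.25, and the transcript B230206H07Rik by -1.92, -1.15 and -1.45. Gm5636 differed by -1.66 ± 0.60 with 1 of 3 MCAO arrays and no VEGF array well above background, and with normexp background correction it was at 0.0502.

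No ligand or receptor gene of the VEGF system was called in the fit of 9 arrays. Of the 10 genes 6 lay above 0, while 17201 of all genes (55.8%) lay below 0. Their median difference was 0.02, against -0.04 over all genes, and every difference lay between -0.28 and 0.27. Vegfa, the mouse gene of the injected factor, stood at 1.77, 2.73 and 1.62 on MCAO arrays and at 2.38, 1.16 and 1.76 on VEGF arrays. Arrays of the groups overlapped, with the MCAO array numbered 2 highest and the VEGF array numbered 2 lowest. The difference was -0.28 ± 0.38 (95% interval -1.15 to 0.60; limma adjusted p = 1), and both of its probes lay below 0. Without the arrays numbered 1 it was -0.72 ± 0.39 (limma adjusted p = 0.757). With array weights, under which 6727 genes passed, it was -1.46 ± 0.20 (limma adjusted p = 0.00331). Those weights were 39.8 for MCAO array 2 against 0.0824 and 0.757 for the other MCAO arrays. They were 4.07 for VEGF array 2 against 0.102 and 0.42 for the other VEGF arrays. The weighted value thus mostly reflects the arrays numbered 2, which differed by -1.57, and not 3 mice a side. The probes are of the mouse gene, and the injected agent was human protein.

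Kdr, the main signalling receptor of VEGF-A, stood at 2.64, 2.52 and 2.66 on MCAO arrays and at 3.13, 2.66 and 2.77 on VEGF arrays. The VEGF arrays lay just above the MCAO arrays, numbers 2 and 3 by little, and the difference was 0.25 ± 0.19 (95% interval -0.18 to 0.68). Its 2 probes had opposite signs. Flt1, which also binds VEGF-A and in part traps it, stood at 4.82, 3.45 and 3.07 against 5.08, 3.29 and 3.03. Both arrays numbered 1 were high, and the difference was 0.02 ± 0.61, an interval of -1.36 to 1.41 that narrowed to -0.44 to 0.48 with the replicate block. The sign of Flt1 was negative under quantile normalization. Nrp1 differed by 0.15 ± 0.28 and the co-receptor gene Nrp2 by 0.16 ± 0.35. Among other ligands, Vegfb differed by 0.27 ± 0.20, Vegfc by 0.01 ± 0.27, Vegfd by -0.13 ± 0.46 and the placental growth factor gene Pgf by -0.02 ± 0.22. The lymphatic receptor gene Flt4 differed by -0.01 ± 0.62.

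Endothelial genes that VEGF is known to induce in culture showed no called change either. Of 30 such genes 0 were called, 15 lay above 0 and the median was 0.01. Esm1, a tip cell gene, stood at 3.03, 0.07 and -0.15 on MCAO arrays and at 3.53, -1.40 and -1.54 on VEGF arrays, so the pairs differed by 0.50, -1.48 and -1.39. F3, the tissue factor gene, differed by 1.56 between the arrays numbered 1 and by 0.05 and -0.01 between the others. Apln, the ligand gene of the apelin receptor, differed by 0.06 ± 0.67 and the protease gene Adamts1 by -0.02 ± 0.67. The list's median was 0.54 between the arrays numbered 1 and -0.35 and -0.14 between the others. Of 13 angiopoietin, Tie and Notch genes 10 lay above 0 with a median of 0.04; Angpt1, which stabilises vessels, differed by 0.47 ± 0.46, the Notch target gene Hey1 by 0.34 ± 0.24 and the Notch ligand gene Dll4 by 0.03 ± 0.83.

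Barrier and mural cell genes lay near 0 with a few members apart. Among 18 barrier genes the median was 0.03 and 11 lay above 0. Mfsd2a, the lipid transporter that restrains transcytosis in brain endothelium, stood at 1.72, 1.66 and 1.71 on MCAO arrays and at 2.15, 2.52 and 2.04 on VEGF arrays. All VEGF arrays lay above all MCAO arrays, at 0.54 ± 0.20 (unadjusted limma p of 0.0225, adjusted p of 1). The tight junction gene Cldn5 differed by 0.38 ± 0.58, Ocln by 0.05 ± 0.56, the glucose transporter gene Slc2a1 by -0.13 ± 0.49 and the efflux pump gene Abcb1a by -0.47 ± 0.42. Of 20 endothelial markers 13 lay below 0 (median -0.05). Slco1a4, an organic anion transporter of brain endothelium, stood at -1.30, -1.05 and -0.97 on MCAO and -1.84, -2.15 and -1.26 on VEGF arrays, a difference of -0.65 ± 0.25. VEGF array 3 lay above MCAO array 1.

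Of 12 pericyte and smooth muscle markers 10 lay above 0 (median 0.22, with 0.77 between the arrays numbered 1 and -0.0024 and -0.0053 in the others). Vtn, a pericyte gene, differed by 0.85 ± 0.32 deposited and 0.83 recomputed, and the contractile gene Tagln by 0.43 ± 0.22.

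**Figure D4:**
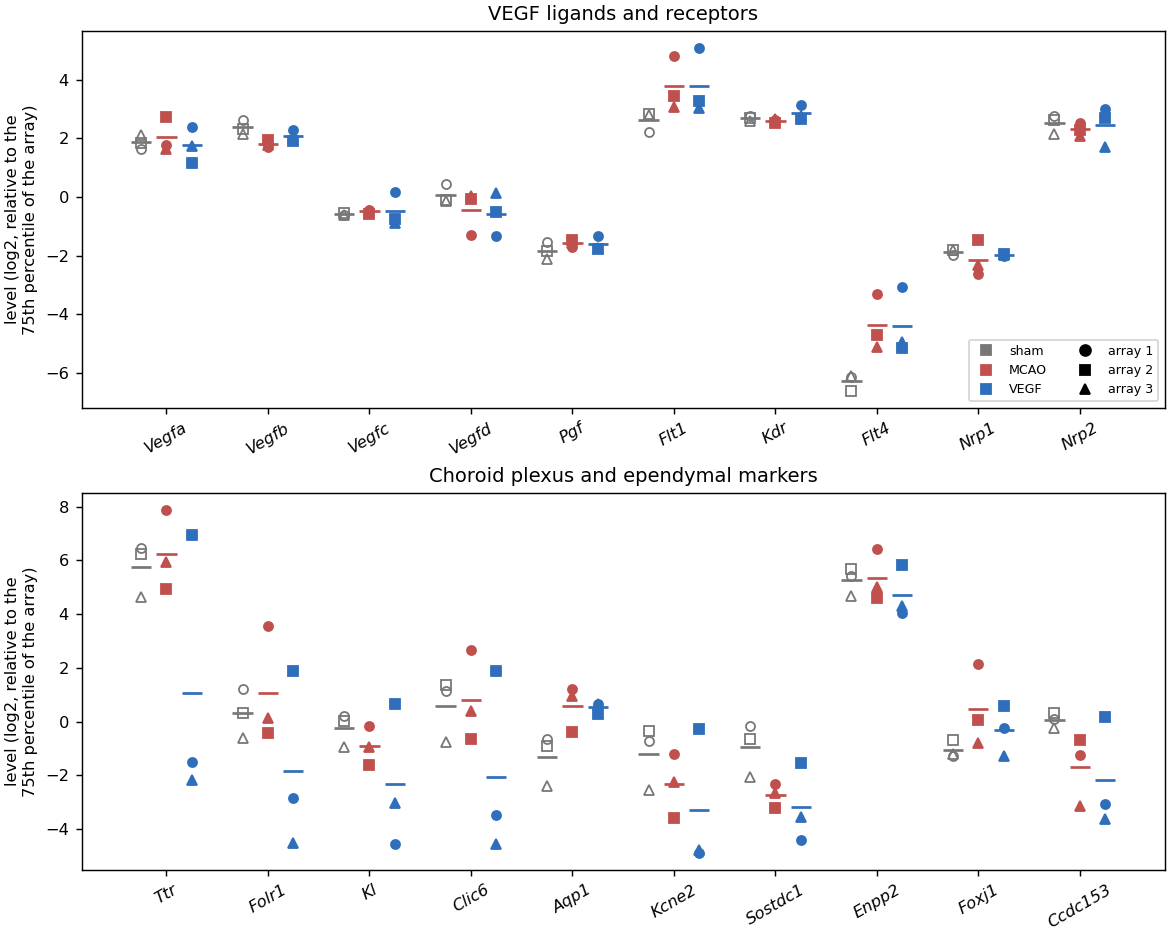
Levels (y axis, log2 relative to the 75th percentile of the array) of the VEGF ligand and receptor genes (top) and of 10 choroid plexus and ependymal markers (bottom) on sham (open), MCAO and VEGF arrays; symbols give the array number and bars the group mean, and levels compare arrays within a gene only. The groups overlap for 9 of the 10 genes in the top panel, and in the bottom panel the VEGF arrays numbered 1 and 3 lie low for Ttr, Folr1, Kl and Clic6.

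Inflammatory lists showed wide within-group spread. Of 30 cytokine and chemokine genes 21 lay below 0, with a median of -0.16 and 0 called. Il1rn, the interleukin-1 receptor antagonist gene, stood at -2.77, -4.11 and -2.19 on MCAO arrays and at -4.67, -4.90 and -4.07 on VEGF arrays. VEGF was lower in every pair, while VEGF array 3 overlapped MCAO array 2, and the difference was -1.52 ± 0.45 (unadjusted limma p of 0.0092, adjusted p of 1). The neutrophil chemokine gene Cxcl5 differed by -1.70 ± 0.88 deposited and -1.76 recomputed, and Il6 by 0.26, -3.40 and -1.15 in the pairs. The chemokine gene Ccl3 differed by -0.77 ± 0.47. Of 12 leukocyte adhesion genes 6 lay above 0 (median 0.01), the integrin ligand gene Icam1 at 0.29 ± 0.47 and Madcam1, an addressin, at -0.74 ± 0.37 with opposite signs on its 2 probes.

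Microglial genes had medians that differed in sign between pairs. Of 12 homeostatic microglia markers 11 lay above 0, with a median of 0.31 and 0 called; 1 had VEGF arrays all above the MCAO arrays (1.96% of all genes). That gene, Tmem119, stood at 0.65, 0.66 and 0.31 on MCAO and at 1.68, 1.04 and 0.83 on VEGF arrays, at 0.64 ± 0.25 (unadjusted limma p of 0.031, adjusted p of 1). The purinergic receptor genes P2ry13 and P2ry12 differed by 0.56 ± 0.30 and 0.34 ± 0.20, and the fractalkine receptor gene Cx3cr1 by 0.44 ± 0.31. By pair the list's median was 0.83, -0.04 and 0.32. Of 20 genes of activated microglia and macrophages 13 lay below 0 (median -0.17, and 0.15, -0.12 and -0.34 by pair), with the lysosomal glycoprotein gene Gpnmb at -1.14 ± 0.59, Lgals3 at -0.41 ± 0.87 and Apoe at 0.46 ± 0.33 deposited and 0.46 recomputed. Of 15 neutrophil genes 8 lay above 0 (median 0.24), with the granule genes Mpo at 0.55 ± 0.44 and Ltf at -1.01 ± 0.50, the histone deiminase gene Padi4 at 0.76 ± 0.89, the receptor gene Csf3r at -0.38 ± 0.28 and S100a9 at -0.09 ± 0.92. Of 13 lymphocyte genes 7 lay below 0 (median -0.07), with the B cell gene Ms4a1 at -0.97 ± 0.86 and the T cell genes Lck at 0.40 ± 0.19 and Cd3e at 0.42 ± 0.19 deposited and 0.38 recomputed.

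Among the 34 gene lists, acute-phase genes were the only one with a called member. Of its 14 genes 11 lay below 0 and 2 were called, Orm1 and Orm2, against 0.00649% of all genes. Both calls rest on departing spots, and neither gene passed with the recomputed signal. The list's other members were spread widely. Saa3, a serum amyloid gene, stood at 5.69, 2.47 and 4.79 on MCAO arrays and at 2.23, 4.38 and 4.58 on VEGF arrays, with MCAO array 2 and VEGF array 1 low and the groups overlapping. Its difference was -0.59 ± 1.02. The haptoglobin gene Hp differed by -0.14 ± 0.78, and Lcn2, a siderophore-binding protein gene of reactive glia and neutrophils, by -0.01 ± 0.34. Of 14 complement genes 7 lay above 0 (median -0.01), with the alternative pathway gene Cfb at -2.91, 0.51 and -1.37 in the pairs and C1qa, of the classical pathway, at 0.33 ± 0.45.

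Interferon-stimulated genes lay below 0 in 17 of 19 members, with a median of -0.59, 0 called and 1 with VEGF arrays all below the MCAO arrays (3.82% of all genes). By pair the median was -0.35, 0.36 and -1.78, the lowest being that of the arrays numbered 3. Relative to sham the median was 1.1 on VEGF array 3, 2.47 and 2.81 on the other VEGF arrays and 2.25 to 3.24 on the MCAO arrays. Bst2, the tetherin gene, was the member whose groups did not overlap: 2.27, 2.33 and 2.60 on MCAO arrays against 2.16, 1.37 and 0.49 on VEGF arrays, a difference of -1.06 ± 0.44 (unadjusted limma p of 0.039, adjusted p of 1). Irf7, the transcription factor gene of the interferon response, differed by -0.98 ± 0.66 and the antiviral gene Rsad2 by -0.89 ± 0.56. Isg15, a ubiquitin-like modifier, differed by -0.87 ± 0.53 deposited and -0.94 recomputed, and Ifit1 by -0.70, 0.84 and -1.91 in the pairs.

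Astrocyte markers lay mostly above 0, reactive astrocyte genes on both sides. Of 14 astrocyte markers 12 lay above 0 with a median of 0.27 and 0 called, and by pair the median was 0.92, -0.14 and -0.03. Fgfr3, a fibroblast growth factor receptor gene of astrocytes, stood at 3.11, 3.22 and 3.05 on MCAO arrays and at 4.07, 3.71 and 3.57 on VEGF arrays. All VEGF arrays lay above all MCAO arrays, at 0.65 ± 0.20 (unadjusted limma p of 0.0112, adjusted p of 1), and both of its probes lay above 0. The gap junction gene Gjb6 differed by 1.25, -0.04 and -0.04 in the pairs. Of 23 reactive astrocyte genes 12 lay above 0 (median 0.01), with Gap43, a growth cone gene, at 0.54 ± 0.35, the protease inhibitor gene Serpina3n at -0.53 ± 0.38 and Gfap at 0.21 ± 0.40.

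Choroid plexus and ependymal markers had the widest spread of list medians across the 3 pairs. They mark the tissue that lines the ventricles and makes cerebrospinal fluid. Of 16 members 15 lay below 0, with a median of -0.95, 0 called and 0 with groups that did not overlap, and 15 were well above background on all 6 arrays. By pair the median was -3.28, 1.84 and -1.67, and relative to sham it was -3.14, 0.96 and -3.19 on the VEGF arrays and 1.77, -0.80 and -0.27 on the MCAO arrays. Ttr, the thyroxine carrier of choroid plexus, stood at 7.86, 4.93 and 5.93 on MCAO arrays and at -1.52, 6.94 and -2.18 on VEGF arrays. VEGF arrays 1 and 3 were low and VEGF array 2 was among the highest. The difference was -5.16 ± 2.14 (95% interval -10.1 to -0.27; limma adjusted p = 1). The folate receptor gene Folr1 differed by -6.38, 2.32 and -4.64 in the pairs, the chloride channel gene Clic6 by -6.12, 2.52 and -4.98, and Kl, the klotho gene, by -4.41, 2.29 and -2.08. Foxj1, of ciliated ependymal cells, differed by -0.79 ± 0.73, and the water channel gene Aqp1 by -0.05 ± 0.53. Without the arrays numbered 1 the list's median was 0.06. The part of the ventricular tissue in each sample in these values was not tested.

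Oligodendrocyte genes lay furthest below 0 between the arrays numbered 1. Of 16 members 14 lay below 0 with a median of -0.59 and 0 called, and by pair the median was -1.79, -0.20 and 0.32. Without the arrays numbered 1 it was 0.03. The myelin glycoprotein gene Mag stood at 5.79, 5.39 and 4.52 on MCAO arrays and at 3.28, 5.49 and 5.08 on VEGF arrays, with VEGF array 1 lowest. Mog differed by -0.72 ± 0.43 and Mbp by -0.57 ± 0.58. Pdgfra, of oligodendrocyte precursors and of meningeal fibroblasts, differed by 0.67 ± 0.35 deposited and 0.67 recomputed.

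Neuronal genes lay near 0 between the groups, although the arrays within each group differed. Of 20 neuron markers 12 lay above 0 (median 0.07) and 0 were called. Dlg4, of the postsynaptic density, stood at 0.75, 1.64 and 1.76 on MCAO arrays and at 1.27, 2.22 and 2.95 on VEGF arrays. VEGF was higher in each pair, the groups overlapped, and the difference was 0.77 ± 0.43 deposited and 0.69 recomputed. The GABA synthesis gene Gad2 differed by 0.57 ± 0.35 and the nuclear marker gene Rbfox3 by 0.12 ± 0.72. Of 19 glutamate and GABA receptor genes 13 lay above 0 (median 0.07), with Gabra2 at 0.58 ± 0.39 deposited and 0.52 recomputed. Of 14 markers of striatal medium spiny neurons 9 lay above 0 (median 0.20). Their neuropeptide genes Penk and Tac1 differed by 1.05 ± 0.82 and 0.90 ± 0.67, led by VEGF array 2, while the dopamine receptor gene Drd1 differed by 0.10 ± 0.45.

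Progenitor and cell division genes mostly differed by less than 1 log2 unit. Of 21 progenitor and neurogenesis genes 12 lay above 0 (median 0.02), and 2 had VEGF arrays all above the MCAO arrays (1.96% of all genes). One of these, the homeobox gene Dlx5 of newborn interneurons, stood at -3.25, -2.62 and -2.69 on MCAO arrays against -2.11, -2.46 and -2.42, at 0.52 ± 0.25. Igfbpl1 differed by -0.81 ± 0.49 and the neuroblast gene Dcx by 0.03 ± 0.55. Of 18 cell division genes 13 lay below 0 (median -0.10), and 14 had intervals within 2-fold, against 53.9% of all genes. The cyclin gene Ccna2 differed by -0.46 ± 0.22 and the proliferation marker gene Mki67 by -0.40 ± 0.21, both with VEGF arrays all below the MCAO arrays and a limma adjusted p of 1.

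Matrix genes lay above 0 mainly between the arrays numbered 1. Of 17 collagen and meningeal fibroblast genes 13 lay above 0 (median 0.19), and by pair the median was 1.47, 0.14 and -0.19. Ogn, of meningeal fibroblasts, differed by 1.06 ± 0.48 and Col1a1 by 2.03, 0.18 and -0.28 in the pairs. Of 25 protease and matrix genes 14 lay above 0 (median 0.08). The metalloproteinase inhibitor gene Timp2 differed by 0.50 ± 0.28, and the macrophage elastase gene Mmp12 by -0.96 ± 0.74 deposited and -1.02 recomputed.

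Among stress genes, Ddit4 and Hmox1 had the largest absolute differences of their lists. Ddit4, an inhibitor of mTORC1 that hypoxia and glucocorticoids induce, stood at 4.77, 3.34 and 3.47 on MCAO arrays and at 5.09, 5.0 and 4.87 on VEGF arrays. All VEGF arrays lay above all MCAO arrays, by 1.13 ± 0.36 (95% interval 0.30 to 1.96; unadjusted limma p of 0.0136, adjusted p of 1), and sham lay at 3.65 to 4.09. Over all 24 hypoxia genes the median was -0.01, 13 lay below 0 and differences ran from -0.95 to 1.13. The hexokinase gene Hk2 differed by 0.05 ± 0.33 and the vasodilator gene Adm by 0.0004 ± 0.29, and P4ha2, of collagen hydroxylation, by 0.32 ± 0.17 with groups that did not overlap. Hmox1, the haem oxygenase gene, stood at 1.06, 4.53 and 3.79 on MCAO arrays and at 1.90, -0.33 and 0.95 on VEGF arrays. It was low on MCAO array 1 and high on the other 2, so the pairs differed by 0.84, -4.85 and -2.83, and the difference was -2.28 ± 0.86 (unadjusted limma p of 0.0281, adjusted p of 1). Without the arrays numbered 1 it was -3.84 ± 0.43 (adjusted limma p of 0.104). The other 15 oxidative stress genes lay between -0.30 for Srxn1 and 0.27 for Sod1.

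The median of the chaperone genes lay above 0 in each pair. Of 14 heat shock genes 12 lay above 0 with a median of 0.22 (0.15, 0.13 and 0.30 by pair) and 0 called. The Hsp70 co-chaperone gene Dnaja1 stood at 4.74, 4.87 and 4.90 on MCAO arrays and at 5.30, 5.03 and 5.21 on VEGF arrays, all above, at 0.35 ± 0.17. Hsp90aa1 differed by 0.29 ± 0.19 deposited and 0.23 recomputed, and the inducible Hsp70 gene Hspa1a by 0.26 ± 1.06. Of 16 genes of the unfolded protein and integrated stress response 11 lay above 0 (median 0.07), with the chaperone gene Hsp90b1 at 0.25 ± 0.19 and Ddit3 at -0.36 ± 0.32 deposited and -0.40 recomputed. Of 23 cell death and p53 target genes 13 lay below 0 (median -0.05). The pro-apoptotic gene Bax stood at 1.92, 2.21 and 2.09 on MCAO arrays and at 1.76, 0.85 and 1.35 on VEGF arrays, all below, at -0.76 ± 0.34 (unadjusted limma p of 0.0569). Tnfrsf12a, a gene of the tumour necrosis factor receptor family, differed by -0.74 ± 0.55.

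Growth factor genes had a median of 0.07. MAP kinase feedback genes, which receptor tyrosine kinase signalling is known to drive, had a median of 0.09. Differences ran from -1.90 to 0.41 over the 21 growth factor genes measured and from -0.43 to 0.48 over the 22 feedback genes. Egf stood at -2.91, -3.47 and -3.29 on MCAO arrays and at -3.80, -3.54 and -3.83 on VEGF arrays, all below, at -0.50 ± 0.20 deposited and -0.51 recomputed. Igf1 differed by 0.41 ± 0.26 on its brightest probe, with 3 of its 4 probes below 0, and the neurotrophin gene Bdnf by 0.15 ± 0.77. The feedback genes Etv4 and Etv5 differed by 0.48 ± 0.51 and 0.29 ± 0.21; Etv4 differed by 0.51, 0.50 and 0.43 in the pairs. Dusp6, the ERK phosphatase gene, differed by 0.21 ± 0.41 and Spry4 by 0.27 ± 0.47. Over 6 red blood cell genes the median was -0.07, with Hba-a1 at -0.13 ± 0.32 and Hbb-bs at -0.22 ± 0.39 deposited and -0.30 recomputed.

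**Figure D5:**
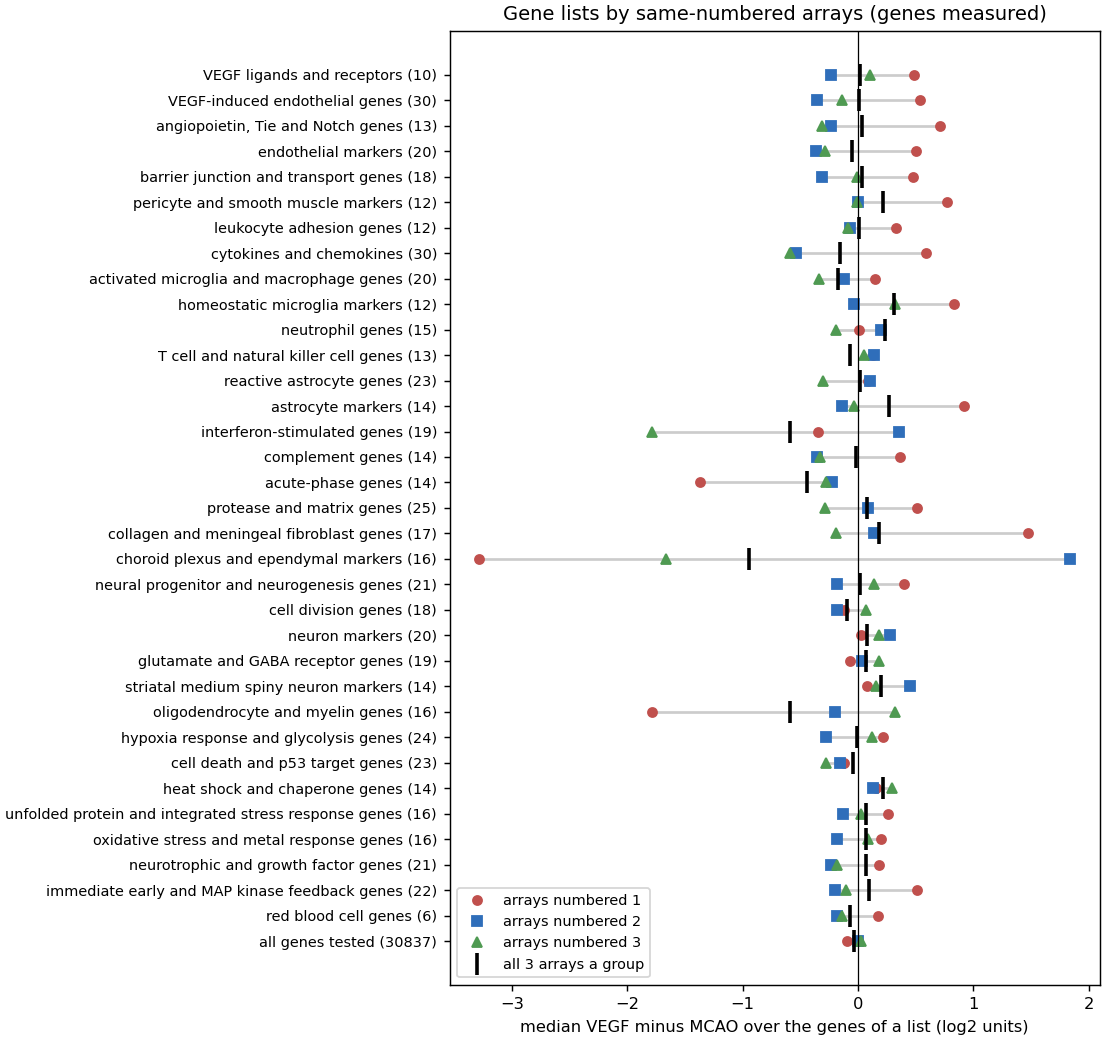
Median VEGF minus MCAO in log2 units (x axis) over the measured genes of each of the 34 lists and of all 30837 genes (y axis, number of genes in brackets), for each pair of same-numbered arrays (coloured symbols) and for all 3 arrays a group (bar). The 3 pairs have medians of one sign in 6 of the 34 lists, and the choroid plexus and ependymal list spans -3.28 to 1.84.

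Leaving out MCAO array 1 and VEGF array 1 narrowed the bounds. The 95% interval then lay within 2-fold for 23139 genes (75%), and 3 genes passed (0.00973%). They were Orm1, Prr7 and Ube2s; the last was singled out after its values were seen. Ube2s, a ubiquitin-conjugating enzyme of the anaphase-promoting complex measured on a matching spot, stood at 3.75, 2.03 and 2.08 on MCAO arrays, at 3.99, 3.85 and 3.96 on VEGF arrays and at 3.50 to 3.55 on sham arrays. MCAO arrays 2 and 3 were low, and MCAO array 1 lay beside sham and VEGF. The difference was 1.85 ± 0.12 without the pair of arrays (limma adjusted p = 0.0302) and 1.32 ± 0.42 with all arrays (adjusted p = 1). Ube2s also passed without MCAO array 1 alone, at 1.88 ± 0.15 (limma adjusted p = 0.0409). Without the pair Agtr1b differed by 2.50, Chtf8 by 1.54, Alg8 by -1.98 and Olfr1000 by -2.28, none of them called. Orm2 differed by -7.28 deposited and was not called there (limma adjusted p = 0.0634).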

How the data were processed

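The 9 mouse brain RNA samples, from different mice per the labels, were hybridised to 1-colour Agilent arrays. The deposited intensity values are the processed, background-subtracted and mean spot signals of Agilent Feature Extraction 10.7.1.1, per the file headers. The detrend factor is a ratio that the software divides by, per the file headers, which record no such step for MCAO array 1. The authors' deposited value table holds log2 values whose processing is not given in the sources used here. Its medians were 6.97 on every array, and it correlated with the scanner's log2 signal at r of 0.998 or higher.

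Log2 processed signal minus the array's 75th percentile was fitted with limma 3.58.1 (R 4.3.3) over 9 arrays with Benjamini-Hochberg adjustment at 0.05. The fit was tested on simulated data. Probes well above background on all 3 arrays of a group were kept, and each gene took its brightest probe. RefSeq's GRCm38.p6 table gave symbols for 26582 probes, matched by accession. Array number limits the precision.

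Same-numbered MCAO and VEGF arrays deviated together (r of 0.587, 0.224 and 0.558 over genes), each above the 0.1 set for using the number as a block. MCAO array 2 with VEGF array 3 (0.392) and MCAO array 3 with VEGF array 2 (0.234) did so too, so the data do not single out the numbers 2 and 3, and the titles give only the numbers. Named genes passed, or had the smallest p with groups that did not overlap; had the smallest p in the blocked fit with 1 sign in all pairs; had the smallest p in a list; or had a stated role. Some genes that this rule names are not reported here. The members and the 34 lists were chosen with earlier results of these data known. Alternatives covered normalization, background, signal column, filter, block, weights, age, probe choice and arrays left out.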

Additional observations from a re-analysis of the deposited data

How the results depend on the processing

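The count of genes called was 2 and moved with the following settings. It was 4 after quantile normalization, where Prr7 (3.27, limma adjusted p = 0.0343) and Iho1 (2.80, adjusted p = 0.0439) were called as well as Orm1 and Orm2, and 1 in the fit of only the 6 arrays. It was 0 in limma with normexp background correction (277 at an unadjusted p under 0.05), with the filter on all 9 arrays (604), with the recomputed signal on every array (901), with MCAO array 1 left undivided (898) and without the departing probes (883). With the replicate block on the 6 arrays it was 0 with deposited signals (1195), with recomputed signals (1204) and without the departing probes (1185). The replicate block on all 9 arrays gave 2, as did the authors' deposited table, no filter and the median of a gene's probes, and age as a covariate gave 3. Leaving out 1 array in turn gave 1 to 3. Array weights gave 6727, 3102 higher and 3625 lower, with 26968 genes within 2-fold. The weights ran from 0.0824 on MCAO array 1 to 39.8 on MCAO array 2, so these counts mostly reflect the arrays numbered 2. The settings that use recomputed signals without division on MCAO array 1, or leave out the departing probes, were chosen after seeing the data. On the 6 arrays without the block Orm1 was called and Orm2 was not (limma adjusted p = 0.0917); with the replicate block there neither was (adjusted p of 0.112). With the block on 9 arrays Orm1 (limma adjusted p = 0.00071) and Orm2 were called, and it changed no other call.

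Signs turned for some named genes. With normexp Olfr1378 was at 0.0482 and Gm5636 at 0.0502. With array weights Vegfb was at -0.031, Angpt1 at -0.0063, Madcam1 at 0.34, Serpina3n at 0.12, Gjb6 at -0.015, Cfb at 0.37, Pdgfra at -0.0567, Ttr at 0.96, Folr1 at 1.61, Hsp90b1 at -0.0244, Flt1 at -0.14 and Nrp1 at -0.45. Without the arrays numbered 1 Angpt1 was at -0.0434, Gjb6 at -0.0387, Flt1 at -0.10 and Nrp1 at -0.0703. Flt1 was at -0.0641 after quantile normalization, -0.0634 in the authors' table and -0.19 with age. With 1 array left out, Angpt1 ran from -0.0323 to 0.92, Etv4 from -0.0217 to 0.97, Flt1 from -0.62 to 0.54, Hba-a1 from -0.42 to 0.0685, Hbb-bs from -0.59 to 2.35e-05, Nrp1 from -0.0915 to 0.48, Sdc1 from -1.89 to 0.0844 and Vegfa from -0.58 to 0.0681. Over the settings other than leaving out 1 array, 1483 values of named genes kept direction and side of the threshold and 21 turned sign. Another 61 newly passed the threshold, all of them with array weights, and 12 no longer passed it. The cause was not tested.

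With 3 arrays a side, where arrays numbered 1 differ from the rest, small differences were not resolved. Dim spots and departing signals limit single genes, and the origin of the departures was not tested.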

Other observations

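Among transcripts without a symbol, BG070991 had the second smallest p of those on matching spots; it was singled out after its values were seen. It stood at -5.33, -5.75 and -4.62 on MCAO arrays and at -8.27, -7.21 and -7.25 on VEGF arrays. The VEGF arrays lay below the MCAO arrays and were not well above background. The difference was -2.34 ± 0.37, at an unadjusted limma p of 0.00017 and an adjusted p of 0.654.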
